A study of Mus musculus with 34 samples.

Results

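The transcripts followed here are those of the mitochondrial carrier family, the genes whose symbols begin with Slc25a. They were chosen by symbol alone, a rule that uses no measured value, and 47 of the 23109 genes in the files met it. RNA-Seq of immortalized brown preadipocytes gave 14 libraries in 3 experiments, with 1 library for each condition. Levels are RPKM, read counts divided by transcript length in kilobases and by the total of mapped reads, so that genes of different length can be set side by side. The 14 libraries hold between 12213559 and 24365867 mapped reads.

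By the labels all cells came from interscapular brown fat of newborn mice of strain C57BL/6J with floxed alleles of the glucocorticoid receptor gene (GR-flox/flox), whereas the study's methods name newborn wild-type mice as a source, and which applies is not settled here. All were immortalized with the SV40 large T antigen. The labels mention a retroviral vector or Cre step that leaves cells WT or GR KO, without saying which of these libraries received Cre. In the first experiment the cells carried retroviral FLAG-tagged histone H3.3, either wild type (WT) or with lysine 36 replaced by methionine (K36M), and were harvested at day 0 (D0), day 2 (D2) and day 7 (D7) of adipogenesis. In the second experiment WT and K36M cells also carried retroviral PPARγ and received the solvent DMSO or its ligand rosiglitazone (Rosi). The labels give 0 h for DMSO and 24 h for Rosi, whereas the study describes 24 h of either agent. In the third experiment cells carried a lentiviral control hairpin (Ctrl) or a hairpin against Nsd2 (Nsd2 KD), an H3K36 methyltransferase, and were harvested at D0 and D2. Between D0 and D2 the medium held insulin, T3, IBMX, dexamethasone and indomethacin, so time in culture and these agents cannot be told apart. After D2, by the study's methods, only insulin and T3 were kept of these agents. Time from D2 to D7 and loss of the other agents thus cannot be told apart. If the labelled hours hold, Rosi and time in culture cannot be told apart either. All populations are infected cells of an immortalized line, the files hold no second culture of any condition, and the level of the H3.3 transgenes was not checked here.

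Mitochondrial carriers are proteins of the inner mitochondrial membrane that exchange metabolites, nucleotides, cofactors and ions between the matrix and the cytosol. ADP/ATP and phosphate carriers feed the ATP synthase, the citrate carrier sends acetyl units to the cytosol for fatty acid synthesis, and the carnitine carrier brings fatty acids in for oxidation. In brown fat the best known relative is the uncoupling protein Ucp1, which lets protons leak back to make heat and has a symbol outside the Slc25a series.

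With 1 library per condition no difference has a replicate check and no p-value is given. A carrier is called higher or lower where its RPKM differed by more than 2-fold and reached at least 1 in 1 or both of the libraries compared. The log2 ratio of each pair is followed by its 95% counting interval, computed from the reads behind the RPKM values. It covers counting error only, and the spread between cultures is not known. Each count of carriers called under the 2-fold rule is read beside the share of all tested genes that passed it. The counts in the closing sections have no such share.

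Of the 47 carriers, 31 had an RPKM of at least 1 in every library, 8 reached 1 in some of them and 8 stayed below 1 in all of them. The summed RPKM of the family ran from 721 in Ctrl cells at D0 to 1449 in WT cells at D7. At D0, D2 and D7 the sum was 804, 1341 and 1449 in WT cells. In K36M cells it was 890.5, 1253 and 873, so the D7 value lay near the D0 value. In Ctrl cells the sum went from 721 to 1019 between D0 and D2, and in Nsd2 KD cells from 756 to 749.7. The sum is ruled by few genes, since Slc25a3, Slc25a4 and Slc25a5 together made up between 38.3% and 62.1% of it.

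**Figure D1:**
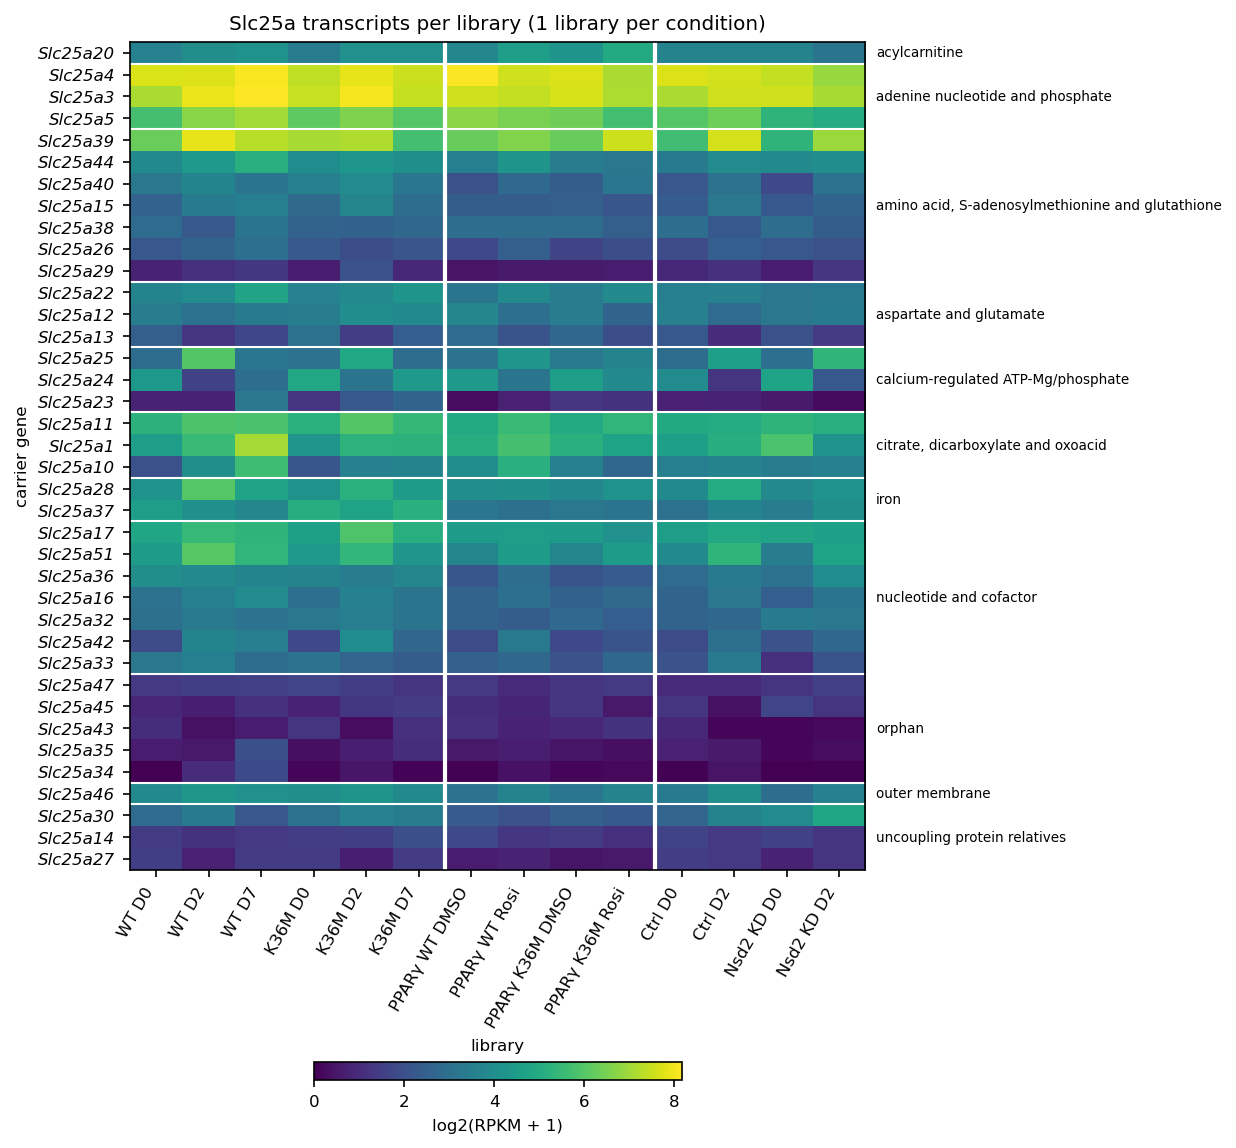
Level of 38 carriers that reached an RPKM of 1 in at least 1 library, as log2(RPKM + 1), with 1 column per library and rows grouped by substrate. White vertical lines part the 3 experiments. Slc25a4, Slc25a3 and Slc25a39 form the brightest rows, and among the rows that differ between D0, D2 and D7 are Slc25a25, Slc25a24, Slc25a10 and Slc25a1.

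The adenine nucleotide and phosphate carriers were the most abundant group. Slc25a4, the ADP/ATP exchanger known as ANT1, had the highest mean of the family, 198, and ranged from 118 in Nsd2 KD cells at D2 to 279 in PPARγ WT cells with DMSO. Slc25a3, the phosphate carrier, averaged 189 and ranged from 137 to 286. Slc25a5, the second ADP/ATP exchanger (ANT2), averaged 75.9, and its level was between 0.229 and 0.500 of that of Slc25a4 in every library. Processed pseudogenes of Slc25a5 exist in the mouse genome and how reads shared with near-identical copies were counted is not given in the sources used here, so its level is uncertain to that extent. Slc25a31, the testis ADP/ATP exchanger, had at most 2 reads in any library.

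Among the amino acid and glutathione carriers Slc25a39, which imports glutathione, stood out with a mean of 117 and a range from 39.0 to 229. Its relative Slc25a40 averaged 7.41. Slc25a44, a carrier of branched-chain amino acids, averaged 15.4. Slc25a15 (ornithine), Slc25a26 (S-adenosylmethionine) and Slc25a38 (glycine) had means between 3.70 and 6.26, Slc25a29 (basic amino acids) averaged 1.01 and Slc25a2 stayed at or below 0.469.

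Of the carriers of citric acid cycle intermediates, Slc25a1 (citrate) and Slc25a11 (oxoglutarate) had similar means, 40.7 and 40.7, but Slc25a1 spanned 17.3 to 132 whereas Slc25a11 spanned 29.9 to 62.3. Slc25a10 (dicarboxylates) averaged 14.5 with a range from 3.10 to 48.4. Slc25a21 (oxoadipate) stayed at or below 0.589. The aspartate/glutamate exchangers Slc25a12 and Slc25a13 averaged 9.65 and 3.54, Slc25a12 was the higher of the pair in every library by 1.40- to 8.52-fold, the glutamate carrier Slc25a22 averaged 12.8 and its relative Slc25a18 reached at most 0.616. Slc25a20, the carnitine/acylcarnitine carrier, averaged 15.2.

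The iron importers Slc25a28 (mitoferrin 2) and Slc25a37 (mitoferrin 1) averaged 22.5 and 15.8. Among carriers of nucleotides and cofactors, Slc25a17 (a carrier of peroxisomes) averaged 29.3 and Slc25a51, the importer of NAD, 25.9. Slc25a16, Slc25a32 (folate), Slc25a33 and Slc25a36 (pyrimidine nucleotides) and Slc25a42 (coenzyme A) had means from 5.63 to 9.25. Slc25a46, which acts at the outer membrane, averaged 12.7. Of the relatives of uncoupling proteins Slc25a30 averaged 8.72, Slc25a14 1.80 and Slc25a27 1.13. Of the 8 carriers grouped here as orphans, Slc25a47 and Slc25a45 averaged 1.54 and 1.11, Slc25a43, Slc25a35 and Slc25a34 passed 1 in some libraries, and Slc25a48, Slc25a53 and Slc25a54 in none.

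The label of the cells was checked against markers. The adipocyte genes Fabp4, Adipoq, Plin1, Cidec, Cebpa and Pparg were all more than 2-fold higher at D2 than at D0 in WT and in Ctrl cells, with a median log2 ratio of 5.58 and 6.40. Their summed RPKM went from 60.2 to 3705 in WT and from 42.2 to 1427 in Ctrl cells. Defining brown fat genes were at or near 0. Ucp1 had an RPKM of at most 0.194, Cidea of at most 0.0973 and Dio2 of at most 0.0543, in the libraries where each was highest. Of the other listed brown fat genes Ppargc1a reached 6.32 and Elovl3 7.38, both in WT cells, and Prdm16 3.36 in K36M cells. The preadipocyte genes Dlk1, Pdgfra and Cd34 summed to 60.2, 13.1 and 80.1 over the WT course and to 32.7, 30.4 and 98.6 over the K36M course, so the D7 sum was above that of D0 in both. In Ctrl cells they summed to 61.7 and 9.02 and in Nsd2 KD cells to 174 and 28.6. The summed RPKM of the macrophage list stayed at or below 3.07 and that of the endothelial list at or below 0.934. Of the muscle list Myod1, Myog and Ckm were near 0 in every library and Acta1 was not. The summed RPKM of that list was 31.5 and 26.4 in PPARγ WT cells and 67.7 and 63.1 in PPARγ K36M cells, against at most 14.9 elsewhere.

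The first question was how the carriers move during normal adipogenesis. In WT cells between D0 and D2 the calcium-regulated ATP-Mg/phosphate carriers changed places, since Slc25a25 went up and Slc25a24 down by nearly 10-fold each. Slc25a10, Slc25a42, Slc25a28, Slc25a51, Slc25a39 and the low Slc25a34 were more than 2-fold higher at D2. The lower ones besides Slc25a24 were Slc25a13, Slc25a27 and Slc25a43. In all, 8 of 36 tested carriers were higher at D2 (22.2%), against 9.38% of all 12155 genes tested, and 4 were lower (11.1%), against 17.3%. The median log2 ratio was 0.50 over the carriers and -0.01 over all genes, and 27 of the 36 carriers lay above 0. Over the 14 genes listed for mitochondrial content (porins, import subunits, chaperonin and respiratory chain) the median was 0.73.

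Slc25a24 and Slc25a25 carry ATP-Mg in exchange for phosphate and bind calcium on their cytosolic side. In WT cells the D0, D2 and D7 levels of Slc25a25 were 6.36, 62.2 and 8.18 RPKM. The D2 level was 9.77-fold that at D0 (log2 ratio 3.29, 3.15 to 3.43), and the D7 level was 7.60-fold below it (log2 ratio -2.93, -3.09 to -2.77). Slc25a24 took the opposite course in the same libraries. Its levels on the same days were 19.6, 2.01 and 6.79, that is 9.75-fold lower at D2 (log2 ratio -3.29, -3.56 to -3.03) and 3.38-fold higher again at D7 (log2 ratio 1.76, 1.45 to 2.06). The ratio of Slc25a25 to Slc25a24 went from 0.325 to 30.9 and back to 1.2. In Ctrl cells it went from 0.446 to 17.7. The third calcium-regulated carrier, Slc25a23, had levels of 0.709, 0.716 and 8.42 (D7 against D0, log2 ratio 3.57, 3.14 to 4.02). The last of this group, Slc25a41, stayed at or below 0.435.

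On the annotation of build NCBIM37 Slc25a24 spans chr3:108926067-108971375 on the plus strand and Slc25a25 chr2:32270007-32306965 on the minus strand. The files list 3 RefSeq transcripts of Slc25a25. They gave nearly the same values, with 57.3, 61.5 and 62.2 RPKM at D2 in WT cells, so the table does not tell which start was used. Its exons overlap those of Naif1 on the other strand over 8.18% of their bases and the libraries do not keep strand, but Naif1 itself was at 1.33 RPKM at D0 and 1.77 at D2. The promoters of the carriers were searched on both strands, in the 250 bases before each RefSeq start, for motifs chosen after the values had been seen, among them TGACGTCA, the cyclic AMP response element. Of the 47 carriers, 36 had an entry in the RefSeq promoter table, with 46 starts. The element was in 2 of these 46 windows, in 1 of the 3 starts of Slc25a25 and in the start of Slc25a36, and in 1.55% of all 32851 promoters. Both stretches are shown because they are the matches found, read from RefSeq (GRCm38.p6) and placed on NCBIM37 by exact match, with the element in capitals. That of Slc25a25 is the whole window, chr2:32279587-32279836 on the minus strand, which holds no exon in GENCODE M1, and its element begins 150 bases before the start. That of Slc25a36 is the 134 bases, chr9:97011577-97011710 on the minus strand, that lie upstream of the annotated exons, and its element begins 161 bases before the RefSeq start.
Slc25a25: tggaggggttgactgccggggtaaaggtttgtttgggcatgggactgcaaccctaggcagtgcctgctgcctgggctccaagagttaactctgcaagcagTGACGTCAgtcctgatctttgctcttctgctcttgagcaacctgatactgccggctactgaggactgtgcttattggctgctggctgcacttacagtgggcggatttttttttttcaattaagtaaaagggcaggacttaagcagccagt
Slc25a36: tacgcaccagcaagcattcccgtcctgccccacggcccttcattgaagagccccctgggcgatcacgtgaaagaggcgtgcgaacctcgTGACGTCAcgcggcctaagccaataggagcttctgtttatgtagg

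The match is a description of the letters and not of a bound site. Slc25a36 itself was at 15.3, 13.3 and 11.9 RPKM at D0, D2 and D7 in WT cells and at 6.20 and 9.60 at D0 and D2 in Ctrl cells. The other motifs searched in the same windows were CACGTG (the E-box), in 17.4% of the carrier windows and 6.02% of all, CCAAT, in 45.7% and 33.8%, TGACG, which TGACGTCA contains, in 23.9% and 17.8%, GCGCATGC (from the NRF1 motif), in 4.35% and 2.26%, and TNAAGGTCA (ERR), in 0 carrier windows and 1.14% of all.

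Several other carriers were highest in WT cells at D2. Slc25a28, which brings iron to the sites of heme and iron-sulfur cluster synthesis, had an RPKM of 16.8, 62.9 and 25.2 at D0, D2 and D7 (D2 against D0, log2 ratio 1.90, 1.77 to 2.04). Slc25a37, its relative, was at 22.7, 16.0 and 12.7. The ratio of Slc25a28 to Slc25a37 was therefore 0.738, 3.92 and 1.98. Slc25a51 was at 21.8, 64.9 and 40.8 (D2 against D0, log2 ratio 1.57, 1.5 to 1.65). Slc25a39 (chr11:102264299-102269260, minus strand) was at 79.5, 229 and 155 (D2 against D0, log2 ratio 1.53, 1.47 to 1.59). Slc25a28, Slc25a51 and Slc25a39 were thus lower at D7 than at D2, and their D7 levels lay within 2-fold of those at D0.

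Other carriers were highest at D7. Slc25a10 (chr11:120353154-120360501, plus strand), which exchanges malate and succinate for phosphate, went from 3.10 through 15.3 to 48.4 over D0, D2 and D7, 15.6-fold in all (log2 ratio 3.97, 3.78 to 4.15). Slc25a1 (chr16:17925304-17928312, minus strand), which exports citrate, went from 22.7 to 44.0 and 132, 5.84-fold in all (log2 ratio 2.55, 2.43 to 2.66). Of the genes listed for citrate export and fat synthesis, Cs makes citrate, Acly splits it in the cytosol, Acaca and Fasn build fatty acids from the acetyl units and Me1 supplies NADPH. They were all more than 2-fold higher at D7 as well, with a median log2 ratio of 3.06. Slc25a42, which brings in coenzyme A, reached its D7 level early, with 2.64, 11.9 and 10.3.

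Between D0 and D7 in WT cells 13 of 39 tested carriers were higher (33.3%), against 11.5% of all genes, and 2 were lower, against 8.9%. Besides those above, the higher ones included Slc25a5 (log2 ratio 1.31, 1.21 to 1.41), Slc25a3 (log2 ratio 1.04, 0.98 to 1.10), Slc25a44 (log2 ratio 1.27, 1.16 to 1.38), Slc25a22 (log2 ratio 1.13, 0.98 to 1.28), Slc25a15 (log2 ratio 1.09, 0.89 to 1.29) and the low Slc25a29, Slc25a34 and Slc25a35. Slc25a34 had 1, 54 and 91 reads on the 3 days, the last of which is 2.55 RPKM (D7 against D0, log2 ratio 7.19, 4.68 to 12.51). Slc25a35 was at 0.537, 0.458 and 3.00, and 31.3% of its exon bases overlap Rangrf on the other strand, which was at 1.65, 1.71 and 1.23. The lower ones were Slc25a24 and Slc25a43, and the interval of Slc25a43 (log2 ratio -1.02, -2.37 to 0.17) includes 0. Slc25a4 changed little, with 206, 210.0 and 270.0. Of the 14 mitochondrial content genes 6 were more than 2-fold higher at D7 than at D0 and 0 lower. Their median log2 ratio was 0.56, beside 0.58 over the carriers, and their part in the carrier values was not tested. Between D2 and D7 alone 10 of 38 carriers were higher, against 15.7% of all genes, and 3 (Slc25a25, Slc25a28 and Slc25a30) were lower, against 5.08%. The higher ones included Slc25a1, Slc25a10, Slc25a23, Slc25a24, Slc25a27, Slc25a34, Slc25a35, Slc25a45 and, by the smallest margin, Slc25a38 at 2.03-fold.

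**Figure D2:**
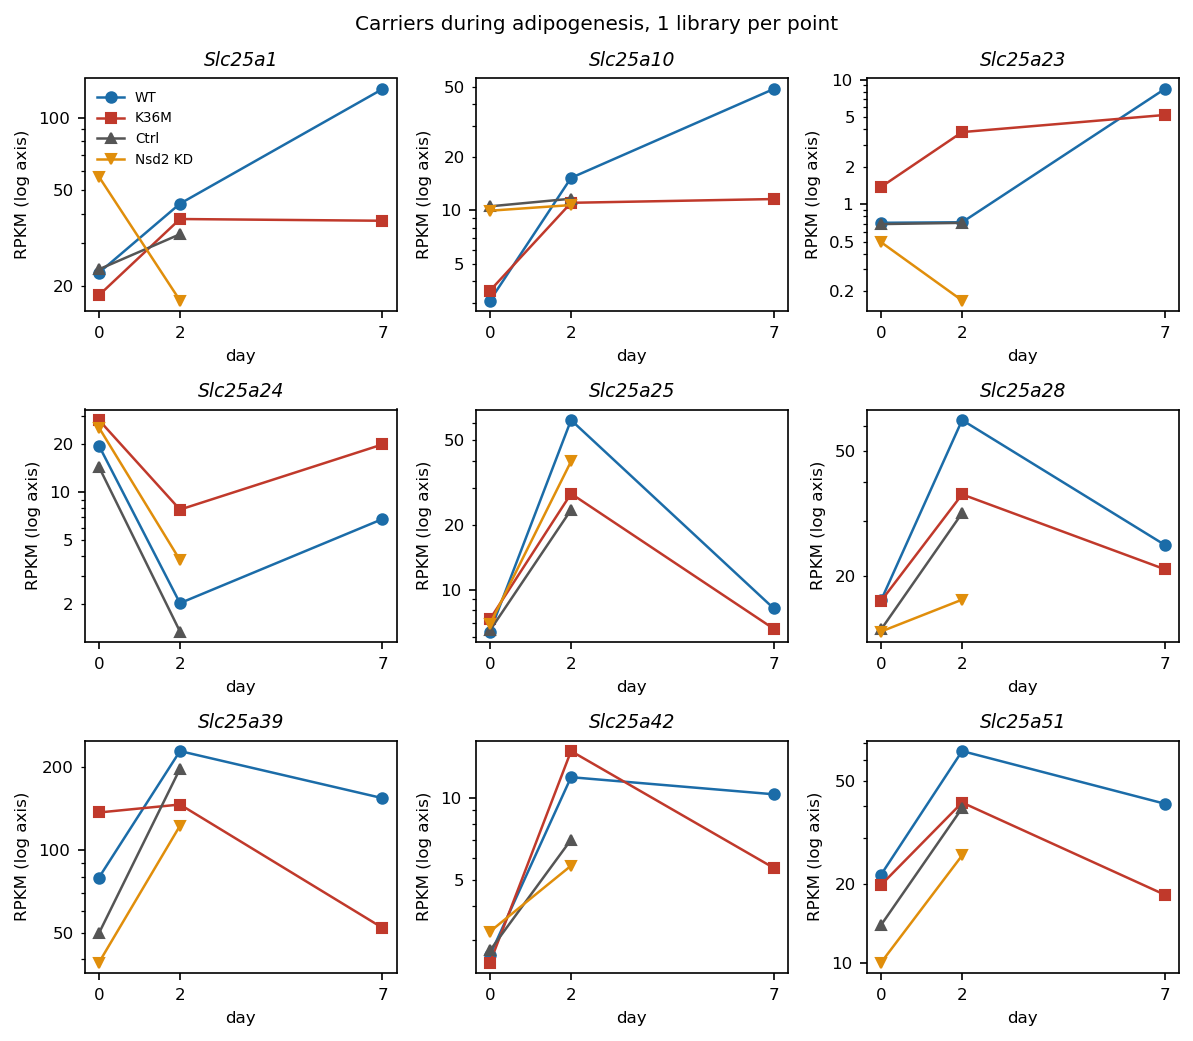
RPKM (log axis) of 9 carriers against day of adipogenesis in WT, K36M, Ctrl and Nsd2 KD cells, with 1 library per point and no error bars. Slc25a25, Slc25a28 and Slc25a39 are highest at D2 in WT cells, while Slc25a1 and Slc25a10 are highest at D7 in WT cells, where K36M cells have 37.3 and 11.6 RPKM.

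The Ctrl cells of the third experiment went through the same first days in separate libraries. Of 34 tested carriers 9 were higher at D2 than at D0 (26.5%), against 11.3% of all genes, and 3 were lower, against 16.1%. Of the 33 carriers tested in both the WT and the Ctrl course, 29 had the same sign of change (87.9%), against 73.1% of the 11536 genes tested in both. Slc25a25, Slc25a28, Slc25a39, Slc25a42 and Slc25a51 were called higher in both, which is 5 of the 8 WT calls and 5 of the 9 Ctrl calls, and Slc25a13 and Slc25a24 were called lower in both, 2 of 4 and 2 of 3. Over all genes the shared higher calls were 50% of the WT and 42.1% of the Ctrl list, and the shared lower calls 59.6% and 64.9%. In Ctrl cells Slc25a24 went from 14.4 to 1.33 (log2 ratio -3.44, -3.76 to -3.12) and Slc25a25 from 6.45 to 23.6 (log2 ratio 1.87, 1.72 to 2.03). Slc25a39 went from 49.9 to 198 (log2 ratio 1.99, 1.91 to 2.07). Slc25a13, the aspartate/glutamate exchanger known as citrin, went from 4.51 to 1.44 in WT (log2 ratio -1.64, -2.01 to -1.29) and from 3.72 to 1.07 in Ctrl cells (log2 ratio -1.80, -2.22 to -1.40). Its partner Slc25a12 went from 9.83 to 7.36 in WT and from 10.8 to 6.16 in Ctrl cells.

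The control populations differed from each other as well. Their virus, construct and experiment all differ, and with 1 library each these cannot be told apart. At D0, Ctrl differed from WT by more than 2-fold in 5 of 35 carriers, higher in 1 (7.1% of all genes were higher) and lower in 4 (15.1% were lower). The higher one was Slc25a10, at 10.5 in Ctrl and 3.10 in WT cells. Its further course differed too, since it was 11.6 in Ctrl and 15.3 in WT cells at D2. The lower ones were Slc25a33, Slc25a36 (log2 ratio -1.30, -1.48 to -1.13), Slc25a37 (log2 ratio -1.65, -1.79 to -1.52) and Slc25a40. At D2, 1 of 35 was higher (Slc25a27), against 4.82% of all genes, and 2 were lower (Slc25a25, by 2.63-fold, and Slc25a34), against 6.42%. The median ratio over genes was shifted by -0.22 at D0 and -0.14 at D2 on the log2 scale. Differences of up to 3.40-fold at D0 thus occurred between cells that had both been given a control construct.

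**Figure D3:**
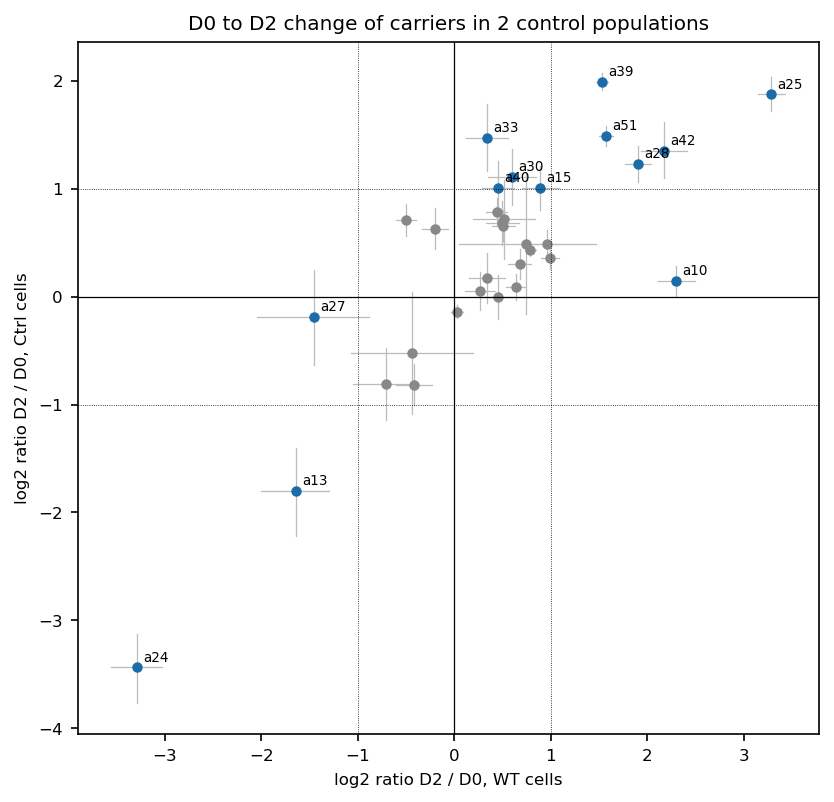
Log2 ratio of D2 to D0 for 32 carriers in WT cells (horizontal axis) and in Ctrl cells (vertical axis), with grey bars for the 95% counting intervals and dotted lines at 2-fold. Blue points passed 2-fold in 1 or both courses and are named by the end of their symbol. Slc25a24 and Slc25a13 lie at the lower left, Slc25a25 at the upper right, and Slc25a10 is high in WT cells with a value near 0 in Ctrl cells.

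The second question was whether K36M cells differ from WT cells in their carriers. At D0 none of 35 tested carriers differed by more than 2-fold, against 5.02% of all genes higher and 6.36% lower. The ratios ran from -0.42 to 0.96 on the log2 scale. The widest was that of Slc25a23 (log2 ratio 0.96, 0.45 to 1.48), and Slc25a39 was at 79.5 in WT and 137 in K36M cells (log2 ratio 0.79, 0.72 to 0.86).

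At D2 all 3 detected calcium-regulated carriers differed by more than 2-fold. Slc25a25 reached 28.1 in K36M against 62.2 in WT cells (log2 ratio -1.14, -1.24 to -1.05). Slc25a24 stood at 7.79 against 2.01 (log2 ratio 1.95, 1.66 to 2.26) and Slc25a23 at 3.80 against 0.716 (log2 ratio 2.41, 1.93 to 2.91). The ratio of Slc25a25 to Slc25a24 at D2 was thus 3.61 in K36M and 30.9 in WT cells. This comparison shares its WT library with that of D2 against D0 in WT cells. Altogether 5 of 36 carriers were higher in K36M cells, against 11.2% of all genes, and 3 were lower, against 4.37%. The other higher ones were Slc25a12 (log2 ratio 1.03, 0.84 to 1.22), Slc25a29 and Slc25a45, and the other lower ones Slc25a33 (log2 ratio -1.01, -1.31 to -0.71) and Slc25a34. Slc25a33, which supplies pyrimidine nucleotides, passed by a small margin, at 2.01-fold. Of the adipocyte genes 4 of 6 were more than 2-fold lower in K36M cells at D2 (median -1.25), the 3 preadipocyte genes were all above 0 with 1 past 2-fold (median 0.98), and all 14 mitochondrial content genes were below 0 with 1 past 2-fold (median -0.46). Their part in the carrier values was not tested.

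At D7 Slc25a10, Slc25a1 and Slc25a39 stood about 3- to 4-fold below the WT level in K36M cells, and Slc25a24 and Slc25a37 were nearly 3-fold higher. Of 39 tested carriers 9 were lower (23.1%), against 8.46% of all 12587 genes, and 4 were higher (10.3%), against 11.7%. The median log2 ratio was -0.53 over the carriers and 0.12 over all genes, and scaling to the median ratio over genes moves each carrier by 0.11. Of the 39, 27 lay below 0. Counting intervals lay below 0 for 24 carriers, above 0 for 6 and across 0 for 9. These interval counts depend on the number of reads and have no share of all genes beside them. The comparison shares its WT library with that of D7 against D0 in WT cells.

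Slc25a10 was at 11.6 RPKM in K36M and 48.4 in WT cells at D7, 4.18-fold lower (log2 ratio -2.06, -2.20 to -1.93). Slc25a1 was at 37.3 against 132, 3.55-fold lower (log2 ratio -1.83, -1.94 to -1.71). For Slc25a1 and Slc25a10 the D2 levels had been close, at 38.0 against 44.0 and 11.0 against 15.3, so the gap opened between D2 and D7. The enzymes Cs, Acly, Acaca, Fasn and Me1 were all more than 2-fold lower too, with a median log2 ratio of -2.47. Of the 4 malate-aspartate shuttle enzymes Got1, Got2, Mdh1 and Mdh2, 1 was lower and 0 were higher, and of the 5 tested genes of ATP synthase and creatine kinase 2 were lower and 1, Ckmt1, was higher. Of the pyruvate carrier subunits, which belong to another family, Mpc1 was at 1.81 against 7.78 and Mpc2 at 27.7 against 113.

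Slc25a39 was at 137, 147 and 52.1 over the K36M course. At D7 it was 2.97-fold lower than in WT cells (log2 ratio -1.57, -1.67 to -1.47) and 2.63-fold lower than at D0 of the same cells (log2 ratio -1.40, -1.49 to -1.30). Slc25a51 was at 18.3 against 40.8 (log2 ratio -1.16, -1.27 to -1.05), Slc25a44 at 15.7 against 33.9 (log2 ratio -1.11, -1.24 to -0.98) and Slc25a5 at 64.2 against 131 (log2 ratio -1.03, -1.14 to -0.92). Among the orphans Slc25a35 was at 1.08 against 3.00, and Slc25a34 had 2 reads in K36M and 91 in WT cells (log2 ratio -5.38, -8.45 to -3.49).

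The carriers that were higher in K36M cells at D7 were Slc25a24, Slc25a37, Slc25a30 and Slc25a43. Slc25a24 was at 20.0 against 6.79 (log2 ratio 1.56, 1.37 to 1.75). Its K36M level at D7 was close to the 19.6 of WT cells at D0 and below the 28.4 of K36M cells at D0. Slc25a37, mitoferrin 1, was at 32.7, 25.6 and 34.9 over the K36M course and at 12.7 in WT cells at D7 (log2 ratio 1.46, 1.33 to 1.58), whereas Slc25a28 differed by less (log2 ratio -0.26, -0.45 to -0.07). Slc25a30, a relative of the uncoupling proteins, was at 9.93 against 3.70 (log2 ratio 1.43, 1.05 to 1.81). Slc25a43 rests on 16 and 8 reads and its interval includes 0 (log2 ratio 1.13, -0.18 to 2.56).

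Other carriers had ratios near 1 at D7. Slc25a20, the carnitine carrier, was at 16.6 in K36M and 16.8 in WT cells (log2 ratio -0.01, -0.22 to 0.20), while of its 4 listed partners 1 was more than 2-fold higher and 2 lower. Cpt1a was at 47.3 against 9.67 and Cpt2 at 13.1 against 32.1. Slc25a32 (log2 ratio 0.01, -0.23 to 0.25) and Slc25a36 (log2 ratio 0.03, -0.16 to 0.21) also had intervals on both sides of 0. All 6 adipocyte genes were more than 2-fold lower in K36M cells at D7, with a median of -3.86 and a summed RPKM of 230.4 against 3644. Of the 14 mitochondrial content genes 6 were more than 2-fold lower and 0 higher, with a median of -0.91. The part of the share of adipocytes or of mitochondria per cell in the carrier differences was not tested, and in a whole culture fewer cells of a type and less RNA per cell cannot be told apart.

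Over their own course K36M cells had 10 of 37 carriers higher at D2 than at D0, against 10.2% of all genes, and 4 lower, against 11.2%. Slc25a42 went from 2.48 to 14.8 (log2 ratio 2.58, 2.33 to 2.85), Slc25a25 from 7.28 to 28.1 (log2 ratio 1.95, 1.79 to 2.11) and Slc25a24 from 28.4 to 7.79 (log2 ratio -1.87, -2.04 to -1.70). Slc25a17, a peroxisomal carrier of cofactors, was called in this comparison alone, from 23.9 to 59.5 (log2 ratio 1.31, 1.18 to 1.44). Between D2 and D7 only 4 of 38 carriers were higher, against 15.7% of all genes, and 5 were lower (Slc25a25, Slc25a29, Slc25a39, Slc25a42 and Slc25a51), against 7.02%. Slc25a42 ended at 5.52 and the ratio of Slc25a25 to Slc25a24 at 0.328. Between D0 and D7, 6 of 37 were higher, against 14.5% of all genes, and 1, Slc25a39, was lower, against 7.8%.

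**Figure D4:**
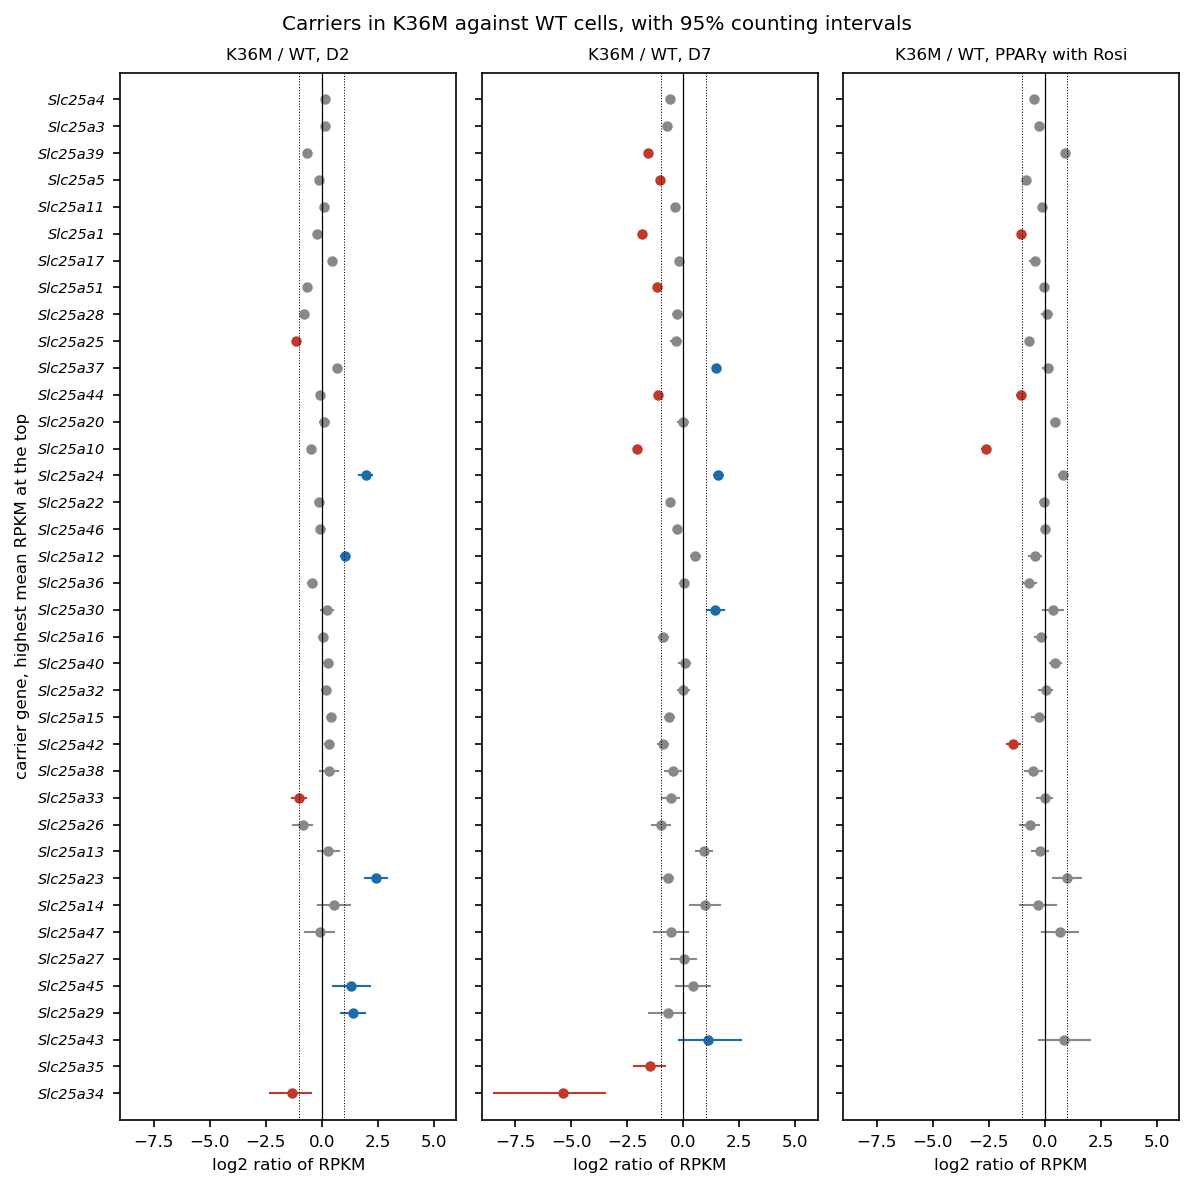
Log2 ratio of RPKM in K36M against WT cells for carriers tested at D2, at D7 and with PPARγ and Rosi, with horizontal bars for 95% counting intervals and dotted lines at 2-fold. Red points are called lower and blue points higher. Most points lie left of 0 at D7, and Slc25a10 is the lowest point with Rosi, at -2.62 on the log2 scale.

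The third question was how the carriers respond when PPARγ, a nuclear receptor that drives fat cell genes, is given its ligand. In WT cells with PPARγ, 3 of 34 carriers were higher with Rosi (8.82%), against 9.96% of all genes, and 1 was lower, against 5.05%. They were Slc25a42, Slc25a25 and Slc25a10, and the lower one was Slc25a24. Slc25a42 went from 2.64 to 8.84 RPKM (log2 ratio 1.74, 1.49 to 2.00). Slc25a10 went from 15.1 to 35.1 (log2 ratio 1.22, 1.12 to 1.32). Slc25a25 went from 7.65 to 18.7 (log2 ratio 1.29, 1.14 to 1.44) and Slc25a24 from 20.1 to 7.79 (log2 ratio -1.37, -1.53 to -1.22), the same directions as between D0 and D2 of adipogenesis. Slc25a20, the carnitine carrier, went from 12.8 to 22.5 (log2 ratio 0.81, 0.64 to 0.98), short of 2-fold, while all 4 of its listed partners Cpt1a, Cpt1b, Cpt2 and Crat passed it.

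Before Rosi, 1 of 35 carriers, Slc25a23, exceeded 2-fold in K36M over WT cells (log2 ratio 2.80, 2.02 to 3.68), against 5.09% of all genes, and 0 were lower, against 3.11%. Slc25a23 was low there, at 1.43 RPKM (117 reads) in K36M and 0.205 (15 reads) in WT cells. In K36M cells Slc25a39 was the single carrier called higher with Rosi, from 76.8 to 184 (log2 ratio 1.26, 1.19 to 1.33), against 7.9% of all genes, and Slc25a13 and Slc25a45 were called lower, against 8.85%. Slc25a10 went from 11.1 to 5.71 (log2 ratio -0.95, -1.15 to -0.76) and Slc25a42 from 2.50 to 3.36 (log2 ratio 0.43, 0.10 to 0.75). Slc25a20 went from 17.7 to 30.9 (log2 ratio 0.80, 0.65 to 0.95), with an interval that overlaps that of WT cells. Slc25a25 went from 8.80 to 11.6 and Slc25a24 from 22.7 to 13.8.

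Set side by side after Rosi, 4 of 34 carriers were lower in K36M than in WT cells (11.8%), against 12.1% of all genes, and 0 were higher, against 7.02%. The share of lower carriers was thus near that of all genes. The 4 were Slc25a10 (6.14-fold, log2 ratio -2.62, -2.80 to -2.44), Slc25a42 (log2 ratio -1.40, -1.68 to -1.12), Slc25a44 (log2 ratio -1.06, -1.24 to -0.89) and Slc25a1 (log2 ratio -1.05, -1.19 to -0.90). Before Rosi the same carriers had ratios of -0.45 for Slc25a10, -0.08 for Slc25a42, -0.10 for Slc25a44 and 0.11 for Slc25a1 on the log2 scale. When both libraries were scaled to the median ratio over genes, a shift of -0.11, Slc25a44 and Slc25a1 fell short of 2-fold and Slc25a23 and Slc25a39 passed it, which turned 0 higher and 4 lower into 2 and 2. The mitochondrial content list had a median of 0.05 here and the adipocyte list one of -3.01, with a summed RPKM of 1245 against 3165. The comparison after Rosi shares its WT library with that of Rosi against DMSO in WT cells. Slc25a1, Slc25a10 and Slc25a44 were lower in K36M cells both here and at D7 of adipogenesis, which is 3 of the 4 calls here and 3 of the 9 there, in separate libraries. Over all genes the shared lower calls were 25.8% and 35.0% of the same lists. Slc25a1 and Slc25a44 are the calls lost here on scaling, and lists this short allow no reading of the difference. The K36M libraries of this experiment had reads on 20121 and 19981 genes and the WT libraries on 18385 and 17671, and the part of this and of the Acta1 difference in the ratios was not tested.

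The last question was whether loss of Nsd2 changes the carriers. Nsd2 itself was at 19.9 and 29.0 RPKM in Ctrl cells and at 5.85 and 7.01 in Nsd2 KD cells at D0 and D2. At D0, 2 of 34 carriers were higher in Nsd2 KD cells, against 6.61% of all genes, and 2 were lower, against 10.8%. At D2, 3 of 35 were higher (8.57%), against 4.88%, and 2 were lower (5.71%), against 9.57%. The median log2 ratio at D2 was -0.18 over the carriers and -0.05 over all genes. Both comparisons share their Ctrl libraries with that of D2 against D0 in Ctrl cells.

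Slc25a30 and Slc25a33 were called in the same direction at both days. Slc25a30 was at 14.2 against 5.37 at D0 (log2 ratio 1.40, 1.15 to 1.66) and at 27.1 against 11.6 at D2 (log2 ratio 1.23, 1.05 to 1.40), and the D2 value is its highest in the 14 libraries. Slc25a33 was at 1.13 against 3.21 at D0 (log2 ratio -1.5, -2.08 to -0.96) and at 3.38 against 8.91 at D2 (log2 ratio -1.40, -1.72 to -1.09). The exons of Slc25a33 overlap those of Gm13068 on the other strand over 14.9% of their bases.

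At D2, Slc25a5 was at 32.5 in Nsd2 KD and 80.6 in Ctrl cells (log2 ratio -1.31, -1.44 to -1.19), the other carriers of its group being lower by less than 2-fold, Slc25a4 (log2 ratio -0.70, -0.77 to -0.63) and Slc25a3 (log2 ratio -0.47, -0.53 to -0.41). Slc25a24 was at 3.75 against 1.33 (log2 ratio 1.49, 1.13 to 1.86). Slc25a25 was at 39.8 against 23.6 (log2 ratio 0.75, 0.66 to 0.85), above Ctrl, while in K36M cells at D2 it was below WT. Slc25a45 rests on 43 and 11 reads (log2 ratio 2.16, 1.18 to 3.26). Slc25a1 was at 57.0 against 23.4 at D0 (log2 ratio 1.28, 1.16 to 1.41) and at 17.3 against 32.8 at D2 (log2 ratio -0.92, -1.07 to -0.77), so that it was 3.29-fold lower at D2 than at D0 in Nsd2 KD cells (log2 ratio -1.72, -1.86 to -1.57). Slc25a27, at 0.747 against 1.77, completed the D0 calls. All 6 adipocyte genes were more than 2-fold lower in Nsd2 KD cells at D2, with a median of -4.38 and a summed RPKM of 58.1 against 1427. Of the 14 mitochondrial content genes 13 were below 0 at D2 and 0 passed 2-fold, with a median of -0.30. At D0 the preadipocyte genes differed too, with Dlk1 at 171 in Nsd2 KD against 38.1 in Ctrl cells and Pdgfra at 1.51 against 22.9. The part of these lists in the carrier values was not tested.

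From D0 to D2 within Nsd2 KD cells 7 of 35 carriers were higher, against 11.8% of all genes, and 2 were lower, against 16.8%. Slc25a25 went from 6.91 to 39.8 (log2 ratio 2.53, 2.37 to 2.68), Slc25a24 from 25.5 to 3.75 (log2 ratio -2.77, -2.97 to -2.56) and Slc25a39 from 39.0 to 123 (log2 ratio 1.65, 1.56 to 1.75). Each thus moved in the direction seen in Ctrl cells. The adipocyte genes of the Nsd2 KD cells summed to 34.2 at D0 and 58.1 at D2, and 3 of the 4 tested were called higher. Their part in these carrier changes was not tested. Slc25a36 passed 2-fold in this course, from 7.18 to 14.8 (log2 ratio 1.04, 0.86 to 1.22).

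**Figure D5:**
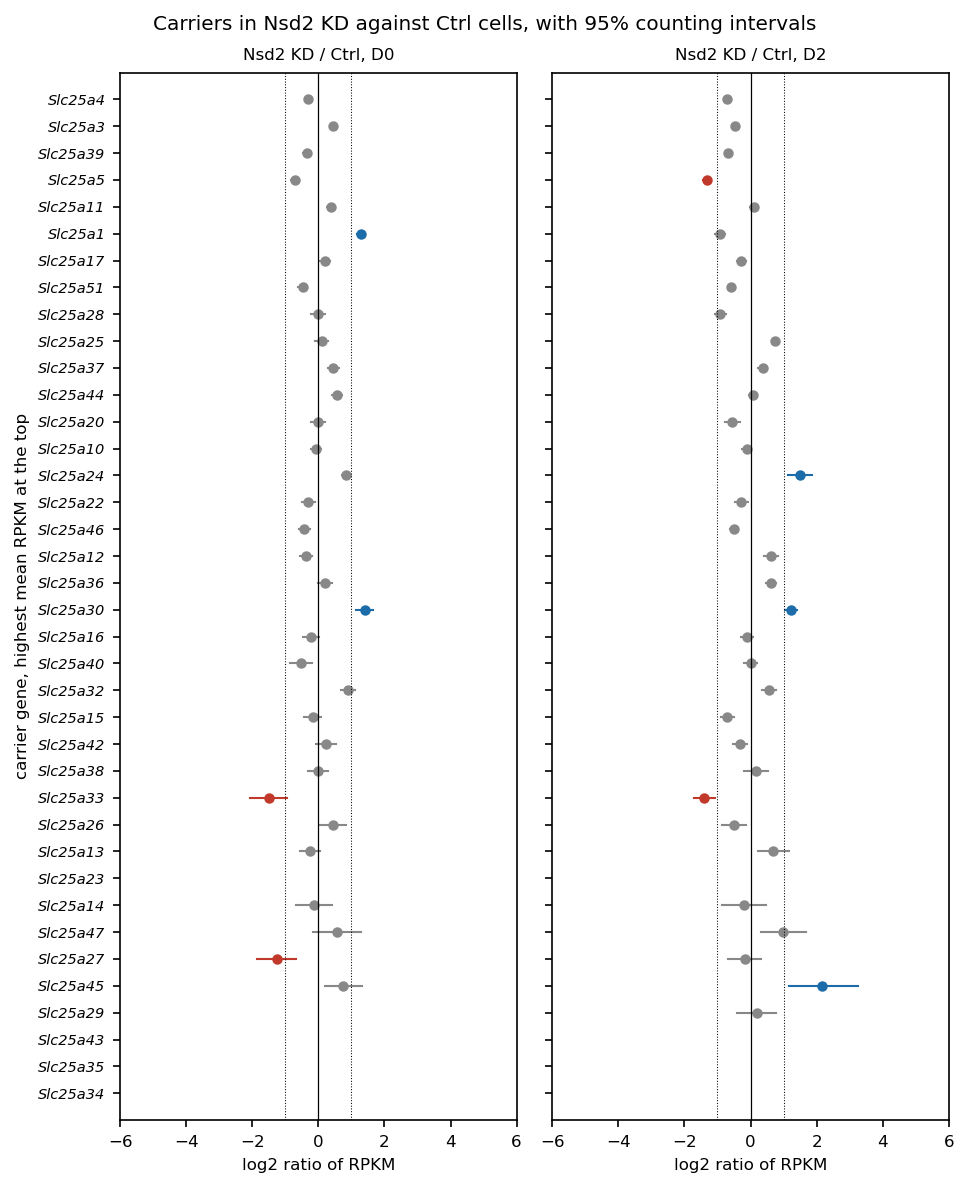
Log2 ratio of RPKM in Nsd2 KD against Ctrl cells for carriers tested at D0 and at D2, with horizontal bars for 95% counting intervals and dotted lines at 2-fold. Red points are called lower and blue points higher. Slc25a30 lies right of the upper line and Slc25a33 left of the lower line at both days, with the remaining calls differing between days.

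K36M and Nsd2 KD at D2 were measured in separate experiments with separate controls. Of the 5 carriers higher in K36M and the 3 higher in Nsd2 KD cells, Slc25a24 and Slc25a45 were in both, where over all genes the shared calls were 12.5% of the K36M and 29.6% of the Nsd2 KD list. Of the 3 lower in K36M and the 2 lower in Nsd2 KD cells, Slc25a33 was in both, where over all genes the shares were 34.0% and 16.1%. Lists this short allow no reading of the difference.

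Carriers were also described by how alike their levels ran across the 14 libraries, as Pearson's r of log2(RPKM + 1) over the 36 carriers compared, with libraries that share cells and days. Slc25a24 was most like Slc25a13 (r = 0.89). Slc25a28 and Slc25a51 were most like each other (r = 0.91), and Slc25a51 was the nearest to Slc25a25 (r = 0.73), Slc25a39 (r = 0.83) and Slc25a42 (r = 0.83) as well. Slc25a1 was nearest to Slc25a10 (r = 0.80). Slc25a4 was nearest to Slc25a5 (r = 0.83).

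Further values at D0, D2 and D7 complete the adipogenesis courses. Slc25a3, the phosphate carrier, was at 139, 240.0 and 286 in WT and 178, 267 and 172 in K36M cells, and Slc25a5, ANT2, at 52.9, 105 and 131 in WT and 69.3, 95.6 and 64.2 in K36M cells. The phosphate carrier thus peaked at D2 in K36M cells and was highest at D7 in WT cells. Slc25a12, the other aspartate/glutamate exchanger, was at 9.83, 7.36 and 9.37 in WT and 10.1, 15.0 and 13.6 in K36M cells, so that it was lowest at D2 in WT cells and highest there in K36M cells. Slc25a15, which carries ornithine, was at 4.90, 9.09 and 10.4 in WT and 6.11, 12.1 and 6.78 in K36M cells. Slc25a22, which carries glutamate, was at 12, 14.4 and 26.2 in WT and 11.3, 13.4 and 17.6 in K36M cells, and Slc25a44 at 14.1, 20.0 and 33.9 in WT and 14.8, 18.7 and 15.7 in K36M cells. The 3 amino acid carriers were highest at D7 in WT cells. Slc25a33, which carries pyrimidine nucleotides, was at 8.37, 10.6 and 6.44 in WT and 7.67, 5.27 and 4.36 in K36M cells, highest at D2 in WT and at D0 in K36M cells. Slc25a38, the glycine carrier, was at 6.27, 3.84 and 7.79 in WT and 5.0, 4.85 and 5.75 in K36M cells.

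In the Nsd2 experiment Slc25a40, the relative of Slc25a39, went from 3.60 at D0 to 7.25 at D2 in Ctrl cells (log2 ratio 1.01, 0.76 to 1.26) and from 2.52 to 7.25 in Nsd2 KD cells (log2 ratio 1.53, 1.23 to 1.83). Slc25a15 went from 4.19 to 8.40 (log2 ratio 1.00, 0.80 to 1.21) and from 3.74 to 5.18 (log2 ratio 0.47, 0.22 to 0.72). Slc25a28 went from 13.6 to 31.8 (log2 ratio 1.23, 1.06 to 1.40) and from 13.4 to 16.9 (log2 ratio 0.34, 0.13 to 0.54). These carriers were all higher at D2 than at D0 in both populations, by ratios on either side of 2-fold.

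Of the 47 carriers 19 passed 2-fold in none of the 11 comparisons of days, of K36M with WT, of Rosi with DMSO in WT and of Nsd2 KD with Ctrl cells that the study's design rests on, and 8 of these are the carriers below RPKM 1 in every library. The other 11 are 28.2% of the 39 carriers tested at least once, against 42.5% of all genes tested at least once that passed in none. They were Slc25a4, Slc25a11, Slc25a14, Slc25a16, Slc25a17, Slc25a20, Slc25a26, Slc25a32, Slc25a36, Slc25a46 and Slc25a47, of which Slc25a17 and Slc25a36 passed it in other comparisons named above. Slc25a11, the oxoglutarate carrier of the malate-aspartate shuttle, stayed between 29.9 and 62.3. Slc25a46 stayed between 6.68 and 18.9 and Slc25a32 between 4.35 and 10.2. Of the family proteins with other symbols, Ucp2 was at 1.40, 72.8 and 15.8 RPKM in WT and at 1.66, 17.0 and 4.85 in K36M cells at D0, D2 and D7, and Ucp3 stayed at or below 0.123. Mtch2, an outer membrane relative, had its highest level, 60.3, in WT cells at D7, where K36M cells had 31.6.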

How the data were processed

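RNA was measured in 14 libraries, 1 for each condition, and 20 ChIP libraries of the 34 samples were not analysed here. The authors deposited 1 table per library with the RPKM of 29082 RefSeq transcripts, from poly-A selected RNA of an unstranded kit. The submitters' processing notes name mm9, CASAVA 1.8.2 and SICER, and the aligner and counter used for RNA are not given in the sources used here. Symbols were assigned to 28436 transcripts (97.8%), and each transcript without a symbol was kept as a gene of its own. This gave 23109 genes, and each gene was represented by its transcript of highest mean RPKM. From the RPKM steps whole reads could be recovered for all 26946 transcripts above 0 in at least 2 libraries, within a tolerance of 0.001 reads, and gave the mapped reads of each library. Fold changes are ratios of RPKM without a pseudocount, with 95% Clopper-Pearson intervals from the reads. A call required more than 2-fold and an RPKM of at least 1 in 1 of the 2 libraries. All values came from Python 3.11.15 with numpy 2.4.6, pandas 2.3.3, scipy 1.17.1 and matplotlib 3.10.9, and the scripts were tested on simulated data. Levels in single libraries are given for most carriers past 2-fold with an RPKM of at least 5. They are also given for the 6 carriers with the highest mean, except Slc25a11. The others are named with a range, count or level. The symbol rule for the carriers uses no measured value, but the choice of this family and of all gene lists was made with earlier results of these data known. The values of 1 carrier are not reported here, and it is counted among the carriers but not plotted.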

Additional observations from a re-analysis of the deposited data

Results flagged for a closer look

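Shown here are carriers that went in opposite directions in 2 cell populations under the same contrast, with both counting intervals away from 0 and more than 2-fold in 1 or both, which 3 carriers met. Opposite signs alone were more common, in 5 of 35 carriers tested for D0 to D2 and 14 of 37 for D0 to D7 (WT and K36M), 6 of 34 for Rosi and 10 of 34 for D0 to D2 (Ctrl and Nsd2 KD). The share of all genes that met either rule is not given here, so these counts are not read as a trait of the carriers. Each condition has 1 library, so the difference between populations was not tested against the spread of cultures. Between D0 and D7 the log2 ratio of Slc25a39 was 0.96 in WT and -1.40 in K36M cells, a difference (K36M minus WT) of -2.36 (counting interval -2.48 to -2.24). Between DMSO and Rosi that of Slc25a10 was 1.22 in WT and -0.95 in K36M cells with PPARγ, a difference (K36M minus WT) of -2.17 (-2.38 to -1.96). Between D0 and D2 that of Slc25a1 was 0.49 in Ctrl and -1.72 in Nsd2 KD cells, a difference (Nsd2 KD minus Ctrl) of -2.20 (-2.40 to -2.01). The Slc25a1 levels of the Nsd2 KD and Ctrl cells already differed at D0. Starting levels of the other carriers differed too. Slc25a39 was at 79.5 in WT and 137 in K36M cells at D0, and Slc25a10 at 15.1 and 11.1 with DMSO.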

How the results depend on the processing

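Of the 8 alternative settings, the minimum RPKM, the 1.5-fold threshold and the demand on the counting interval leave each ratio as it is and change only the calls. A pseudocount cannot turn the sign of a ratio, and the scaling shifts were small beside a 2-fold change, so the 68 ratios could hardly change direction and none did. Among them 16 moved out of their counting interval with a pseudocount of 1 and 4 after scaling to the median ratio. The counts of carriers called changed as follows. They are given without the share of all genes under each setting, so they show only how the calls move. At 1.5-fold they became 16 higher for D2 against D0, 6 lower for D7 against D2 and 5 lower for D7 against D0 in WT cells, 3 higher at D0, 7 lower at D2 and 16 lower at D7 for K36M against WT, 13 higher and 6 lower for Rosi in WT, 5 higher and 9 lower for K36M against WT with Rosi, 15 higher and 5 lower for D2 against D0 in Ctrl, and 5 higher at D0 and 8 higher and 9 lower at D2 for Nsd2 KD against Ctrl. With any RPKM above 0 they became 4 lower for WT D7 against D0, 4 higher and 2 lower at D0, 8 higher and 5 lower at D2 and 7 higher at D7 for K36M against WT, 6 higher and 2 lower for Rosi in WT, 2 higher and 7 lower for K36M against WT with Rosi, 5 lower in Ctrl, and 4 higher and 7 lower at D0 and 5 higher and 6 lower at D2 for Nsd2 KD against Ctrl. With an RPKM of at least 5 they became 1 lower for WT D2 against D0, 6 higher for WT D7 against D2, 1 lower for WT D7 against D0, 2 higher for K36M against WT at D2, 1 lower in Ctrl, and 0 lower at D0 and 1 higher at D2 for Nsd2 KD. A pseudocount of 1 gave 2 lower for WT D2 against D0, 6 higher for WT D7 against D2, 1 lower for WT D7 against D0, 2 higher and 1 lower for K36M against WT at D2 and 0 lower for Nsd2 KD at D0. For WT D7 against D0 a pseudocount of 0.1, scaling to the median ratio and an interval that excludes a ratio of 1 each gave 1 lower. Scaling gave 2 higher and 2 lower for K36M against WT with Rosi. The mean over transcripts moved no count by over 1.5 times. The settings differ by construction in the fold or level a call needs. No paired analysis was possible because every condition has 1 library. Carriers below an RPKM of about 1 rest on few reads, as for Slc25a34, Slc25a35, Slc25a43, Slc25a45 and, in some libraries, Slc25a23.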
